A study of Mus musculus with 16 samples.

Results

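The genes described here are the cyclic AMP response element binding protein (CREB) family and its coactivators: Creb1, Crem, Atf1, Atf2, Crtc1, Crtc2, Crtc3, Crebbp and Ep300. These 9 genes were chosen by name, and all 9 were found under 1 identifier each among the 55385 genes of the tables and among the 17222 genes that passed the filter on low counts. RNA was sequenced from primary hippocampal cultures of newborn C57BL/6N mice in 16 libraries, 4 for each of 4 groups. The cultures were infected with a recombinant adeno-associated virus that carried either a control shRNA (shControl in the sample labels, Control-shRNA here) or an shRNA against the long isoform of DNA methyltransferase 3a (shDnmt3a1, Dnmt3a1-shRNA here), so every group received virus and an shRNA. Each shRNA was tested in baseline, labelled 0 h, and after 4 h of bicuculline, which blocks GABA-A receptors and drives synchronous bursts of action potentials. The methods give the shRNA as driven by the U6 promoter, a promoter not limited to neurons, and the 4 libraries of a group as independent neuronal preparations.

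Estimated counts totalled 28912697 to 29586355 per library, so depth differed little. Dnmt3a, the gene targeted by the shRNA, lay at 293.4 to 338.3 CPM (counts relative to the library total, normalized between libraries by the TMM method) in the 8 Control-shRNA libraries and at 39.4 to 48.1 CPM in the 8 Dnmt3a1-shRNA libraries (log2 fold change -2.81 in baseline and -2.85 with bicuculline). Each library thus matched its shRNA label, although this is the level of the gene and not of its long isoform alone. Dnmt3a does not check the bicuculline label. All 8 neuron markers were above 1 TPM (the same kind of unit, which also corrects for transcript length) in every group, with a summed level of 6325 to 7459 TPM per library. The summed level was 205.8 to 463.2 TPM for 8 astrocyte markers, 81.2 to 187.7 TPM for 8 oligodendrocyte lineage markers, 36.6 to 90.7 TPM for 8 fibroblast and vessel markers and 2.35 to 7.48 TPM for 8 microglia markers, with ranges of all 4 groups overlapping except for microglia. With bicuculline the microglia sums were 2.93 to 4.42 TPM in Dnmt3a1-shRNA against 4.80 to 7.08 TPM in Control-shRNA. Overlapping sums do not show even levels of each marker. In CPM the median log2 fold change of the 8 astrocyte markers in the knockdown was 0.42 in baseline and 0.42 with bicuculline. Slc1a2, at -0.20 and -0.12, went the other way. In the edgeR test described below, S100b alone of the 8 had an adjusted p under 0.05, higher in both. The 3 GABAergic markers summed to 559.8 to 741.6 TPM in Dnmt3a1-shRNA baseline against 876.7 to 1002 TPM in Control-shRNA baseline. With bicuculline they summed to 839.8 to 985.6 against 1121 to 1268 TPM. In CPM the baseline log2 fold changes of Gad1, Gad2 and Slc32a1 were -0.42, -0.31 and -0.12. With bicuculline they were -0.29, -0.14 and -0.12, and the library ranges overlapped for each gene in both. Of these 3 genes, Gad1 in baseline alone had an adjusted p under 0.05 in the edgeR test described below (0.0267). The part of these markers in the results below was not tested. In such bulk RNA, fewer cells of a type and less RNA per cell cannot be told apart.

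CREB1, CREM and ATF1 are leucine zipper proteins that pair with each other and bind the cyclic AMP response element (CRE), whose full letters are TGACGTCA and whose shorter form is TGACG. Synaptic activity leads to phosphorylation of CREB by calcium and cyclic AMP dependent kinases and to entry of the CREB-regulated transcription coactivators (CRTC) into the nucleus, and the acetyltransferases CBP (Crebbp) and p300 (Ep300) are then recruited to the target promoter. In the hippocampus this pathway is known for activity-dependent transcription and long-term memory. Most of it is controlled at the level of the protein, which RNA does not measure. One exception is Crem, whose internal promoter is itself induced by CREB and gives the short repressor ICER.

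After 4 h of bicuculline the RNA of the family moved in both directions. In Control-shRNA cultures Crem rose 3.56-fold, Atf1 2.13-fold and Crtc3 1.42-fold, while Creb1 fell to 0.548 of its baseline level, Crtc1 to 0.737, Ep300 to 0.820 and Atf2 to 0.853. A gene passed at a Benjamini-Hochberg adjusted p under 0.05 in edgeR's quasi-likelihood test over all 17222 genes. By this rule 7 of the 9 genes passed, 3 higher and 4 lower, and 4 also exceeded an absolute log2 fold change of 0.5. Of all genes tested, 41.4% passed, 19.5% higher and 21.9% lower, and 21.9% passed with the fold threshold. In Dnmt3a1-shRNA cultures 7 of 9 passed, 4 higher and 3 lower, and 4 exceeded the fold threshold, against 46.0% of all genes passing, 20.8% higher and 25.2% lower, with 25.8% past the fold threshold. The 4 libraries with bicuculline did not overlap the 4 in baseline for 5 of the 9 genes in either shRNA, Creb1, Crem, Atf1, Crtc1 and Crtc3, against 39.7% of all genes in Control-shRNA and 40.4% in Dnmt3a1-shRNA. With 9 genes, these counts describe the members and set them apart from no other list.

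**Figure D1:**
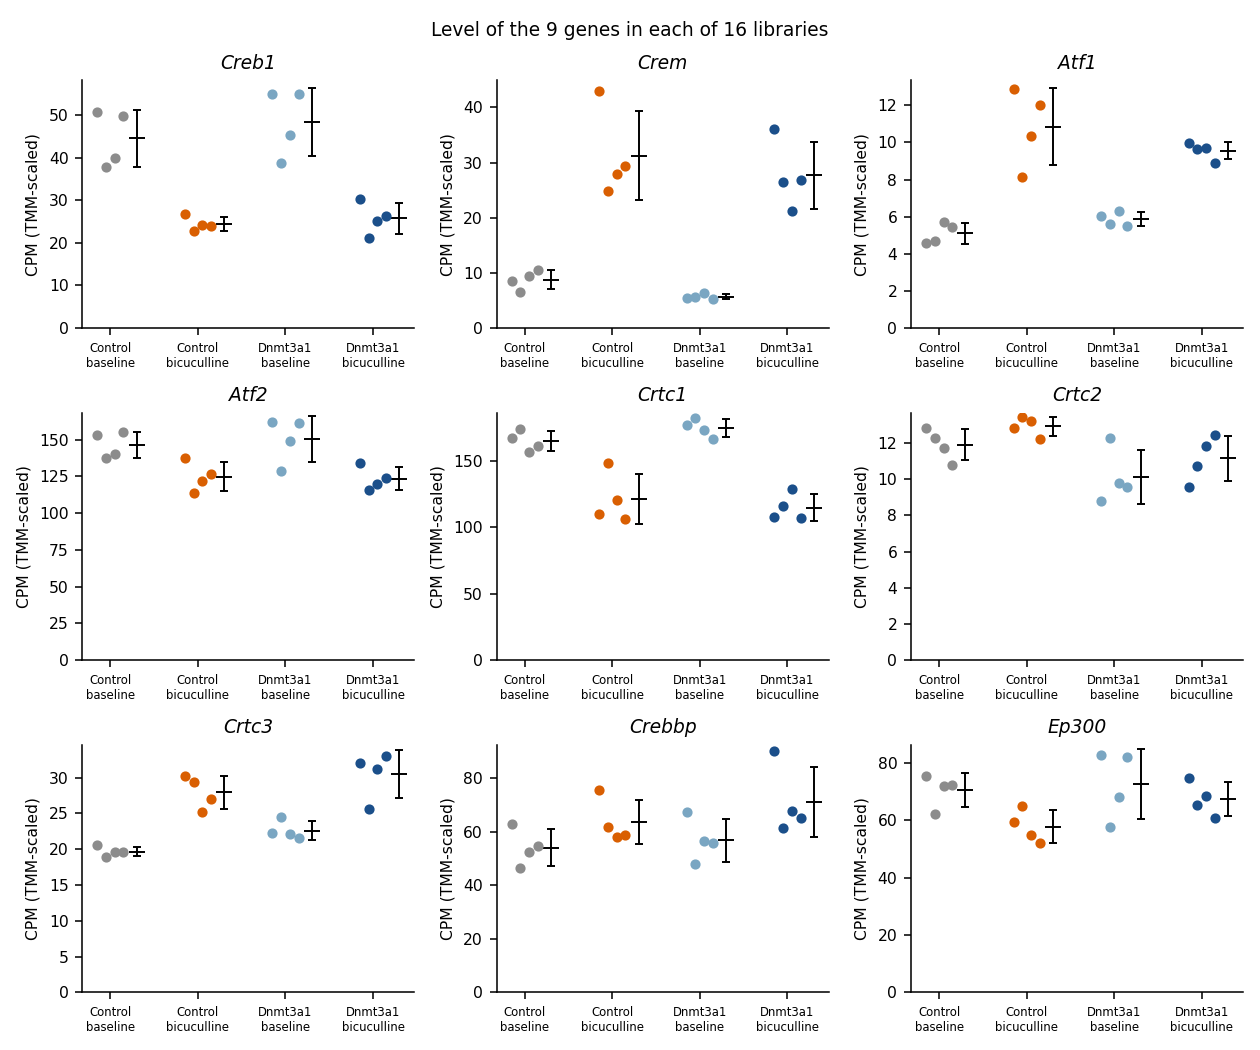
Level of each of the 9 genes in TMM-scaled CPM (vertical axis, from 0) in each library, with the 4 groups on the horizontal axis, replicates 1 to 4 from left to right as points, and mean ± SD as the bar beside them. The bicuculline libraries of Creb1 and Crtc1 all lie below the baseline libraries of the same shRNA, those of Crem, Atf1 and Crtc3 all lie above them, and those of the other 4 genes overlap with baseline.

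Crem encodes both activators and repressors that bind the CRE, ICER among them, and lies on the minus strand of chromosome 18 (GRCm38, chr18:3266048-3337748), where 39 transcripts are annotated. In Control-shRNA it was at 8.56, 6.48, 9.49 and 10.5 CPM in baseline and at 43.0, 24.8, 27.8 and 29.4 CPM with bicuculline. The stimulated libraries stood clear of the baseline ones, with replicate 1 the highest of the 4. Its log2 fold change of 1.83 (SE 0.18, adjusted p = 3.23e-07) was the largest among the 9 genes. In Dnmt3a1-shRNA it went from 5.45, 5.66, 6.35 and 5.32 CPM to 36.0, 26.4, 21.3 and 26.9 CPM, a log2 fold change of 2.28 (SE 0.19, adjusted p = 2.81e-08). The deposited value sums all Crem transcripts, so ICER and the longer forms are not separated in it. The antisense transcript Gm6225 overlaps Crem and had a mean estimated count of 60.7 per library against 515.3 for Crem, and whether the counting used strand is not given in the sources used here.

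Creb1, the founding member of the family, lies on the plus strand of chromosome 1 (chr1:64532645-64604548). Its level in Control-shRNA was 50.9, 37.8, 40.0 and 49.8 CPM in the 4 baseline libraries and 26.8, 22.8, 24.2 and 24.0 CPM with bicuculline. Every stimulated library was below every baseline library. The log2 fold change was -0.87 (SE 0.13, adjusted p = 2.83e-05). In Dnmt3a1-shRNA the values were 55.1, 38.8, 45.3 and 55.0 CPM in baseline and 30.3, 21.3, 25.1 and 26.4 CPM with bicuculline, again without overlap. This gave a log2 fold change of -0.91 (SE 0.13, adjusted p = 1.26e-05).

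Atf1, the close relative of CREB and CREM, lies on the plus strand of chromosome 15 (chr15:100227819-100261244). In Control-shRNA it was at 4.58, 4.66, 5.69 and 5.45 CPM in baseline and at 12.9, 8.13, 10.4 and 12 CPM with bicuculline. All stimulated libraries exceeded all baseline libraries, and the log2 fold change was 1.09 (SE 0.12, adjusted p = 1.67e-06). In Dnmt3a1-shRNA it went from 6.04, 5.59, 6.32 and 5.49 CPM to 9.98, 9.66, 9.69 and 8.90 CPM, a log2 fold change of 0.70 (SE 0.12, adjusted p = 0.000137). Of the 7 members with a start site in the RefSeq windows (GRCm38.p6, from 250 bases before to 50 bases after the annotated start), Atf1 was the one that held CRE letters in either strand, the shorter form at 90 bases before the start. The 30 bases around it are shown as the 1 match among the members, in capitals.
Atf1, chr15:100227756-100227785, plus strand: cgtgaccacgcggTGACGcagcacgccggc
Creb1, Atf2, Crtc1, Crtc3, Crebbp and Ep300 held neither form in their windows. Among all 27025 genes with a window, 23.05% held the shorter form and 2.03% the full form. Crem and Crtc2 had no window in the set used here and were not searched. Absence of these letters describes this window alone.

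Atf2 encodes a factor that binds the same element, mainly as a partner of Jun proteins, and lies on the minus strand of chromosome 2 (chr2:73816509-73892639). It was at 152.8, 137.1, 140.2 and 154.8 CPM in Control-shRNA baseline and at 137.1, 113.4, 121.6 and 126.8 CPM with bicuculline. The groups touched at their edges, and the log2 fold change was -0.23 (SE 0.08, adjusted p = 0.0251). Without Control-shRNA baseline replicate 1 or 4, or bicuculline replicate 2 or 3, it no longer passed, with adjusted p from 0.0613 to 0.0833. In Dnmt3a1-shRNA the levels were 128.9 to 162.1 CPM in baseline and 115.8 to 134.1 CPM with bicuculline, and Atf2 fell by 0.29 on the log2 scale (SE 0.08, adjusted p = 0.00588).

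The 3 CRTC coactivators went different ways. Crtc1, the CRTC best known in neurons (chr8:70382355-70439579, minus strand), was at 167.3, 174.3, 156.8 and 161.1 CPM in Control-shRNA baseline and at 110.4, 148.3, 120.5 and 106.7 CPM with bicuculline. The groups did not overlap, and it fell by 0.44 on the log2 scale (SE 0.09, adjusted p = 0.000552). In Dnmt3a1-shRNA it fell by 0.61 (SE 0.09, adjusted p = 1.91e-05), from 166.9 to 182.6 CPM in baseline to 107 to 129.1 CPM with bicuculline. Crtc3 (chr7:80586627-80688877, minus strand) went the other way, from 20.5, 18.9, 19.7 and 19.6 CPM to 30.3, 29.4, 25.2 and 27.0 CPM in Control-shRNA, a log2 fold change of 0.51 (SE 0.08, adjusted p = 7.25e-05). In Dnmt3a1-shRNA it went from 21.6 to 24.5 CPM in baseline to 25.7 to 33.1 CPM, a log2 fold change of 0.43 (SE 0.08, adjusted p = 0.000255). With limma on log2(TPM + 1) the rise of Crtc3 did not pass in either shRNA, with log2 fold changes of 0.27 (adjusted p = 0.0528) and 0.10 (adjusted p = 0.512), on a scale where the median of all genes was -0.14 and -0.13. Crtc2, known as the CRTC of fasting metabolism in liver (chr3:90254163-90264125, plus strand), was at 10.8 to 12.8 CPM in Control-shRNA baseline and 12.2 to 13.4 CPM with bicuculline. Its log2 fold change of 0.12 did not pass (95% interval -0.10 to 0.33, adjusted p = 0.390), nor did that of 0.14 in Dnmt3a1-shRNA (-0.08 to 0.36, adjusted p = 0.293). Without Dnmt3a1-shRNA baseline replicate 2 the latter was 0.25 and passed (adjusted p = 0.0457).

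The log2 fold changes of the acetyltransferase pair with bicuculline lay between -0.29 and 0.32. Ep300 (chr15:81585351-81652077, plus strand) was at 75.6, 62.2, 71.9 and 72.5 CPM in Control-shRNA baseline and at 59.4, 65.0, 54.9 and 52.2 CPM with bicuculline. The ranges overlapped through baseline replicate 2, and the log2 fold change was -0.29 (SE 0.11, adjusted p = 0.0387). It no longer passed without Control-shRNA baseline replicate 1, 3 or 4 or bicuculline replicate 1, 3 or 4, with adjusted p from 0.0502 to 0.103, nor with DESeq2 size factors (adjusted p = 0.0524) or limma on log2(TPM + 1) and log2(TPM + 0.1) (0.123 and 0.121). In Dnmt3a1-shRNA its log2 fold change was -0.11 (95% interval -0.33 to 0.12, adjusted p = 0.441). Crebbp (chr16:4081328-4213997, minus strand) was at 62.8, 46.4, 52.4 and 54.8 CPM in Control-shRNA baseline and at 75.6, 61.7, 58.0 and 58.9 CPM with bicuculline, higher in all 4 replicate numbers although the ranges overlapped. Its log2 fold change of 0.23 did not pass (95% interval -0.04 to 0.50, adjusted p = 0.164). With the replicate number as a block, which takes same-numbered libraries as linked, it was 0.23 and passed (adjusted p = 0.0026). In Dnmt3a1-shRNA it went from 67.3, 47.9, 56.5 and 55.6 CPM to 90.2, 61.4, 67.8 and 65.0 CPM, a log2 fold change of 0.32 at the edge of the threshold (SE 0.13, adjusted p = 0.0487). It did not pass with voom and limma (adjusted p = 0.0512), scaling by library size alone (0.186) or limma on log2(TPM + 1) and log2(TPM + 0.1) (0.149 and 0.143). Of the 10 alternatives other than left-out libraries it passed in 6, the replicate block among them. Leaving out Dnmt3a1-shRNA bicuculline replicate 1 gave 0.18 (adjusted p = 0.222), leaving out Dnmt3a1-shRNA baseline replicate 2 gave 0.25 (adjusted p = 0.147), and it also missed the threshold without Dnmt3a1-shRNA baseline replicate 3 or 4, Dnmt3a1-shRNA bicuculline replicate 3, Control-shRNA baseline replicate 3 or 4, or Control-shRNA bicuculline replicate 2, 3 or 4 (adjusted p from 0.0544 to 0.0966).

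**Figure D2:**
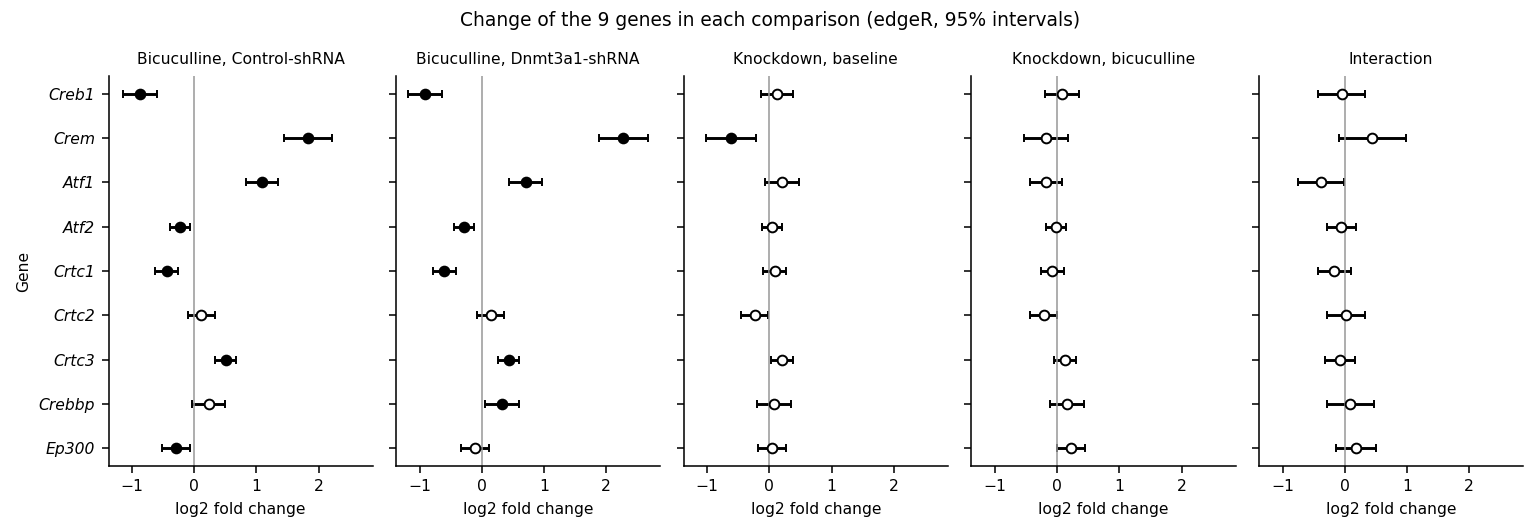
Log2 fold change of each gene (horizontal axis, same scale in all panels) with its 95% interval in the 5 comparisons, from edgeR over 4 libraries per group. Filled points passed at an adjusted p under 0.05, and open points did not. Crem is the single gene filled in a knockdown panel, and no gene is filled in the interaction panel.

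Levels can be compared between the genes only per transcript length, in TPM. In Control-shRNA baseline Atf2 was the highest at 104.4 ± 8.21 TPM (SD, n = 4), followed by Crtc1 at 65.8 ± 3.04, Ep300 at 22.5 ± 2.40, Crem at 18.4 ± 3.06, Crtc2 at 14.7 ± 1.01, Creb1 at 14.1 ± 1.21, Crebbp at 11.9 ± 1.0, Crtc3 at 8.63 ± 0.58 and Atf1 at 7.97 ± 1.85 TPM. The ranges of neighbours in this order overlapped from Ep300 through Crem and Crtc2 to Creb1, and between Crtc3 and Atf1. With bicuculline the order changed: Crem stood at 65.4 ± 14.5 TPM, with a range that overlapped those of Atf2 at 77.0 ± 6.67 and of Crtc1 at 41.0 ± 6.71 TPM, and Creb1 was the lowest at 7.32 ± 0.66 TPM. In Dnmt3a1-shRNA Crem went from the seventh place, at 10.9 ± 1.98 TPM, to the second, at 54.5 ± 10.6 TPM, and Creb1 from the fourth, at 14.3 ± 2.29 TPM, to the last, at 7.15 ± 0.63 TPM. The ranges of neighbours overlapped from the fourth to the eighth place in that baseline, and those of Crem and Crtc1 with bicuculline, so these places are not separate levels.

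The ratio of Crem to Creb1 in TPM was 1.31 ± 0.18 (SD, n = 4) in Control-shRNA baseline and 8.98 ± 2.0 with bicuculline. In Dnmt3a1-shRNA it was 0.773 ± 0.158 and 7.65 ± 1.51. The lowest stimulated library, at 5.63, was above the highest baseline library, at 1.49. Atf1 to Creb1 went from 0.573 ± 0.158 to 2.07 ± 0.29 in Control-shRNA and from 0.575 ± 0.126 to 1.53 ± 0.25 in Dnmt3a1-shRNA. Among the CRTCs, Crtc1 was 7.64 ± 0.33 times as abundant as Crtc3 in Control-shRNA baseline and 3.87 ± 0.65 times with bicuculline, and 6.12 ± 0.43 and 3.34 ± 0.68 times in Dnmt3a1-shRNA. Crebbp to Ep300 went from 0.533 ± 0.056 to 0.710 ± 0.120 in Control-shRNA and from 0.526 ± 0.052 to 0.780 ± 0.099 in Dnmt3a1-shRNA. These ratios combine genes whose own changes are given above and were given no test.

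**Figure D3:**
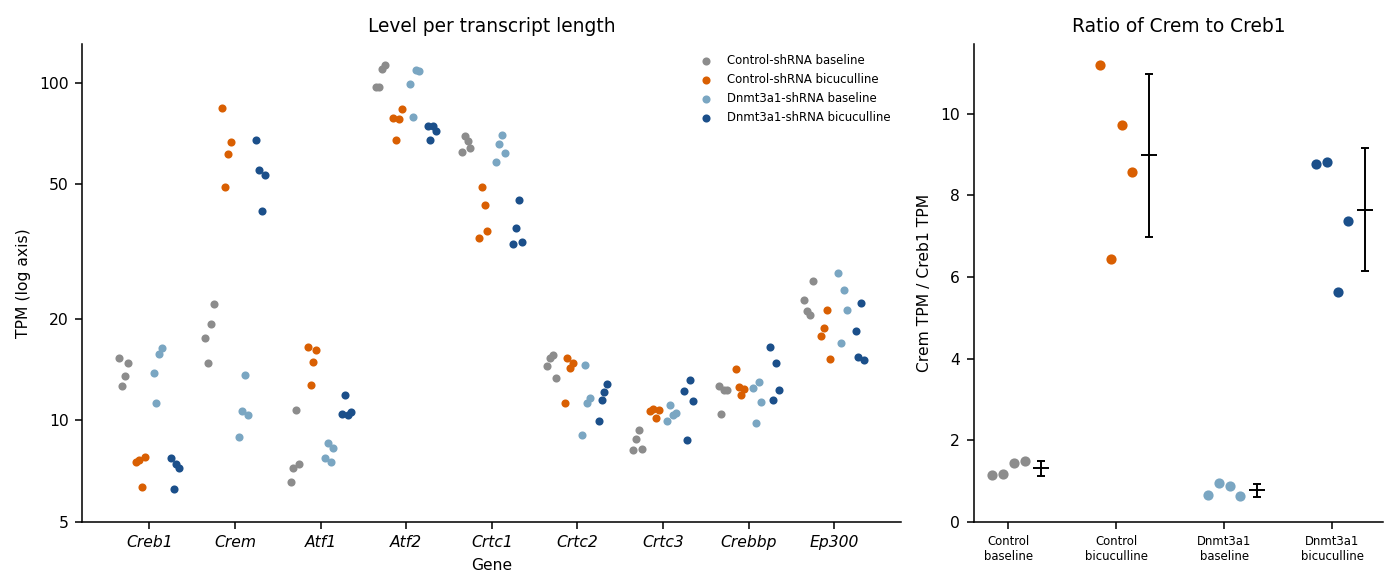
Left, level of each gene in TPM (log axis) in every library, coloured by group. Right, the ratio of Crem TPM to Creb1 TPM per library (axis from 0) with mean ± SD, which is at most 1.49 in the 8 baseline libraries and at least 5.63 in the 8 bicuculline libraries.

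The count and the TPM of a gene together give the mean length of the transcripts that were quantified for it, weighted by their TPM. In 685 to 791 genes with 1 annotated transcript per library, this estimate missed the annotated length by a median of 0.161 to 0.368%. The scale was fitted on these same genes, so this is the error of the fit. It does not measure how well reads were assigned among the several transcripts of a gene such as Crem or Crebbp. The Crem mean was 1125, 1098, 1265 and 1162 nt in Control-shRNA baseline and 1035, 1088, 1037 and 985 nt with bicuculline. The groups did not overlap, as for 12.2% of the 10579 genes with several transcripts, and the means differed by -126 nt (exact two-sided permutation p = 0.0286, the smallest that 4 against 4 libraries allow, and 0.294 adjusted over the 36 tests of this kind). In Dnmt3a1-shRNA the lengths were 1246, 1172, 1168 and 1172 nt in baseline and 1005, 966, 1105 and 1025 nt with bicuculline, a difference of -164 nt with no overlap (exact p = 0.0286, adjusted 0.294, background 13.0% of genes). Crem transcripts annotated here span 290 to 2931 nt, and a mean length does not name the form. The Crebbp mean went from 9385 to 9758 nt in Dnmt3a1-shRNA baseline to 8610 to 9109 nt with bicuculline, also without overlap (exact p = 0.0286, adjusted 0.294), while in Control-shRNA its ranges overlapped (exact p = 0.0571, adjusted 0.294). For the other 7 genes the ranges overlapped in both bicuculline comparisons. The adjusted values miss the threshold for every gene. With a smallest possible p of 0.0286 and 36 tests, a few genes alone could not have passed, so the miss decides nothing.

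**Figure D4:**
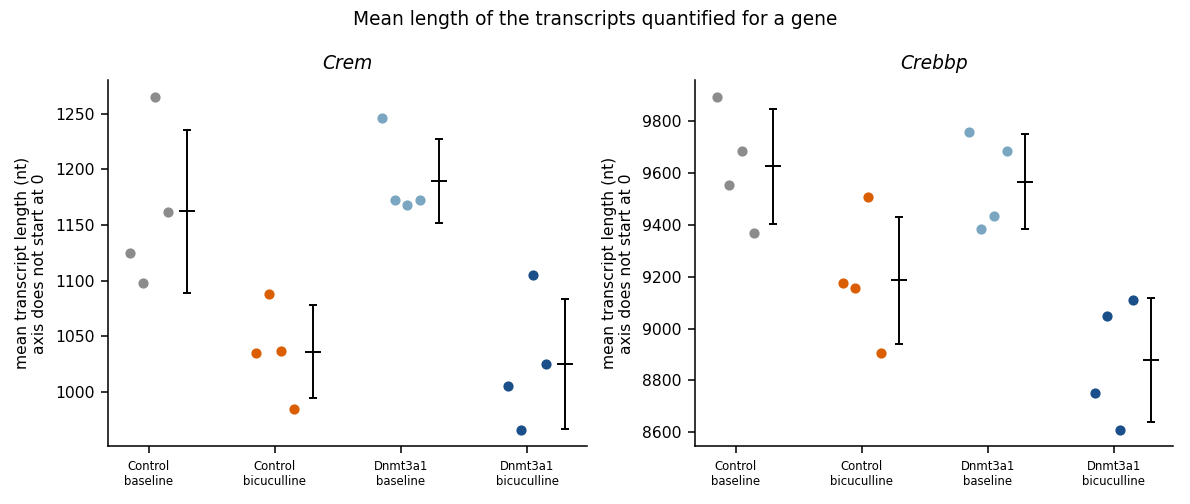
TPM-weighted mean transcript length in nt (vertical axis, not starting at 0) of Crem and Crebbp in each library, with mean ± SD per group. Crem lies at 1098 to 1265 nt in the 8 baseline libraries and at 966 to 1105 nt in the 8 bicuculline libraries, without overlap within either shRNA.

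In baseline 1 of the 9 genes differed between Dnmt3a1-shRNA and Control-shRNA by the rule. Crem passed, at 5.32 to 6.35 CPM in Dnmt3a1-shRNA against 6.48 to 10.5 CPM in Control-shRNA, a log2 fold change of -0.62 (SE 0.19, adjusted p = 0.0346). The 2 groups did not overlap, but the gap between 6.35 and 6.48 CPM was small. Crem did not pass with voom and limma (log2 fold change -0.60, adjusted p = 0.0961), nor without Control-shRNA baseline replicate 1, 3 or 4 or Dnmt3a1-shRNA baseline replicate 1, 2 or 4 (adjusted p from 0.0618 to 0.111). Of all genes 16.3% passed. Crtc3 was also without overlap, at 21.6 to 24.5 against 18.9 to 20.5 CPM, with a log2 fold change of 0.20 that did not pass (95% interval 0.03 to 0.37, adjusted p = 0.109). For 2 of 9 genes the groups did not overlap, against 19.9% of all genes. The log2 fold change of Crtc2 was -0.24 (95% interval -0.45 to -0.02, adjusted p = 0.136), and it passed without Dnmt3a1-shRNA baseline replicate 2 (-0.34, adjusted p = 0.0223). The intervals of the remaining 6 genes included 0 and reached no further than 0.47 from it.

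With bicuculline, none of the 9 genes passed between Dnmt3a1-shRNA and Control-shRNA in edgeR, none had an unadjusted p under 0.05, and in no gene were the groups apart, where 17.7% of all genes passed and 20.9% did not overlap. DESeq2 and voom with limma likewise passed 0 of the 9. Crem was at 21.3 to 36.0 CPM against 24.8 to 43.0 CPM, a log2 fold change of -0.18 (95% interval -0.54 to 0.18, adjusted p = 0.520). Atf1 was at 8.90 to 9.98 against 8.13 to 12.9 CPM, with a log2 fold change of -0.18 (95% interval -0.43 to 0.07, adjusted p = 0.328). On the scale of TPM, Atf1 was at 10.4 to 11.9 in the knockdown against 12.7 to 16.5 in the control, and with limma on log2(TPM + 1) it passed (log2 fold change -0.44, adjusted p = 0.0313). On that scale, which lacks TMM, the median of all genes was -0.07. Ep300 had a log2 fold change of 0.22 (95% interval -0.003 to 0.45, adjusted p = 0.166).

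Whether the response to bicuculline differed between the shRNAs was asked by the interaction, the response in Dnmt3a1-shRNA minus that in Control-shRNA. None of the 9 genes passed, and 0% of all genes did in edgeR. At an unadjusted p under 0.05 edgeR gave 852 of the 17222 genes, with Atf1 the 1 member among them. Voom with limma passed 0 genes, with 858 genes and no member at an unadjusted p under 0.05, and DESeq2 passed 17, with 775 genes and no member. The largest member values were 0.44 for Crem (95% interval -0.10 to 0.99, adjusted p = 1) and -0.38 for Atf1 (95% interval -0.75 to -0.02, adjusted p = 0.984). For Creb1 the difference was -0.05, with an interval from -0.42 to 0.33.

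Of 28 genes known as CREB targets 27 were tested, and with bicuculline 24 passed in Control-shRNA, all 24 higher, where 19.5% of all genes passed higher, with a median log2 fold change of 2.53 over the 27, against 0.01 over all genes. In Dnmt3a1-shRNA 24 passed, all higher, with a median of 3.16, where 20.8% of all genes passed higher. Such lists are collected from genes that respond to activity or cyclic AMP or that carry a CRE, so neither count is independent of how the list was made. The largest changes were those of Npas4, a neuronal activity-dependent transcription factor, from 10.4 ± 4.19 to 1662 ± 234 CPM (SD, n = 4, Control-shRNA, log2 fold change 7.32, SE 0.26, adjusted p = 1.07e-12), and of the AP-1 genes Fosb (7.26, SE 0.22) and Fos (6.40, SE 0.22). In Dnmt3a1-shRNA the same 3 led, with 6.63 for Npas4, 7.04 for Fosb and 6.19 for Fos. The genes that did not pass were Ccna2, Pdyn and Ppargc1a, at -0.63, 0.20 and 0.16 in Control-shRNA, and Pck1 was not tested.

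Of the 28 targets 21 had a RefSeq window, and 18 (85.71%) held the shorter CRE form while 5 (23.81%) held the full form, against 23.05% and 2.03% of all genes. Since targets are largely collected for this element, the shares describe the list and test nothing. The 30 bases around each full match are shown on the strand of the gene with the CRE letters in capitals, to show the element that CREB proteins bind. Targets rose with and without a full match.
Sst, somatostatin, chr16:23890874-23890903, minus strand: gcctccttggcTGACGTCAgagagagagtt
Scg2, secretogranin II, chr1:79440076-79440105, minus strand: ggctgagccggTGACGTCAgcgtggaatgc
Pcsk1, a prohormone convertase, chr13:75089768-75089797, plus strand: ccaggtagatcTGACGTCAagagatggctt
Dusp1, a phosphatase of MAP kinases, chr17:26508597-26508626, minus strand: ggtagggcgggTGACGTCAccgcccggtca
Cartpt, the CART neuropeptide precursor, chr13:99900777-99900806, minus strand: ccggcgggcatTGACGTCAaacggcagcgg
The match began 48 bases before the start in Sst, 68 in Scg2, 78 in Pcsk1, 143 in Dusp1 and 112 in Cartpt. The log2 fold changes with bicuculline in Control-shRNA were 0.62 for Sst, 2.30 for Scg2, 2.93 for Pcsk1, 3.40 for Dusp1 and 1.62 for Cartpt. These 5 were named for their match after their values were seen. A match is a description of the sequence and not a bound site. Fos held the shorter form at 66 and 129 bases before its start, and Npas4 at 169 and, in the opposite strand, at 179. The sites nearest the start are shown as examples of the shorter form in targets described above.
Fos, chr12:85473811-85473840, plus strand: cagttccgcccagTGACGtaggaagtccat
Npas4, chr19:4990124-4990153, minus strand: cgaCGTCAcgggaTGACGtcggaagtctgg

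In the knockdown in baseline 6 of the 27 targets passed, 2 higher and 4 lower, where 16.3% of all genes passed. Past the fold threshold were 5 targets, 1 higher and 4 lower, against 1004 of the 17222 genes. The 3 largest changes were falls: Vgf, a secreted neuropeptide precursor, by 1.20 on the log2 scale (SE 0.20, adjusted p = 0.000423), Bdnf, the brain-derived neurotrophic factor, by 0.74 (SE 0.18, adjusted p = 0.009) and the nuclear receptor Nr4a3 by 0.63 (SE 0.17, adjusted p = 0.017). The libraries of the groups overlapped for Bdnf and Nr4a3 but not for Vgf. Nr4a3 no longer passed without Control-shRNA baseline replicate 1 or 4 or Dnmt3a1-shRNA baseline replicate 2 or 3 (adjusted p from 0.0514 to 0.0575). With the replicate number as a block, 10 of the 27 passed, beside the 4743 calls over all genes. Sst, a transcript of GABAergic interneurons, was among those that fell, by 0.52 on the log2 scale (SE 0.13, adjusted p = 0.00921), beside the lower summed TPM of the GABAergic markers given above. With bicuculline 4 of 27 passed, 3 higher and 1 lower, where 17.7% of all genes did, and 2 without Control-shRNA bicuculline replicate 2, 3 or 4 or Dnmt3a1-shRNA bicuculline replicate 2 or 4. DESeq2 passed 7. The largest were Crh, corticotropin-releasing hormone, at 5.75 ± 1.93 against 2.20 ± 0.23 CPM (SD, n = 4, log2 fold change 1.38, SE 0.20, adjusted p = 0.000165), and Fosb, which fell by 0.61 on the log2 scale (SE 0.16, adjusted p = 0.0156), but not without Control-shRNA bicuculline replicate 2 or Dnmt3a1-shRNA bicuculline replicate 4 (adjusted p = 0.053 and 0.0572). In the interaction 0 of the 27 passed in edgeR, DESeq2 or voom with limma. In edgeR 3 had an unadjusted p under 0.05, beside 852 of all 17222 genes.

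**Figure D5:**
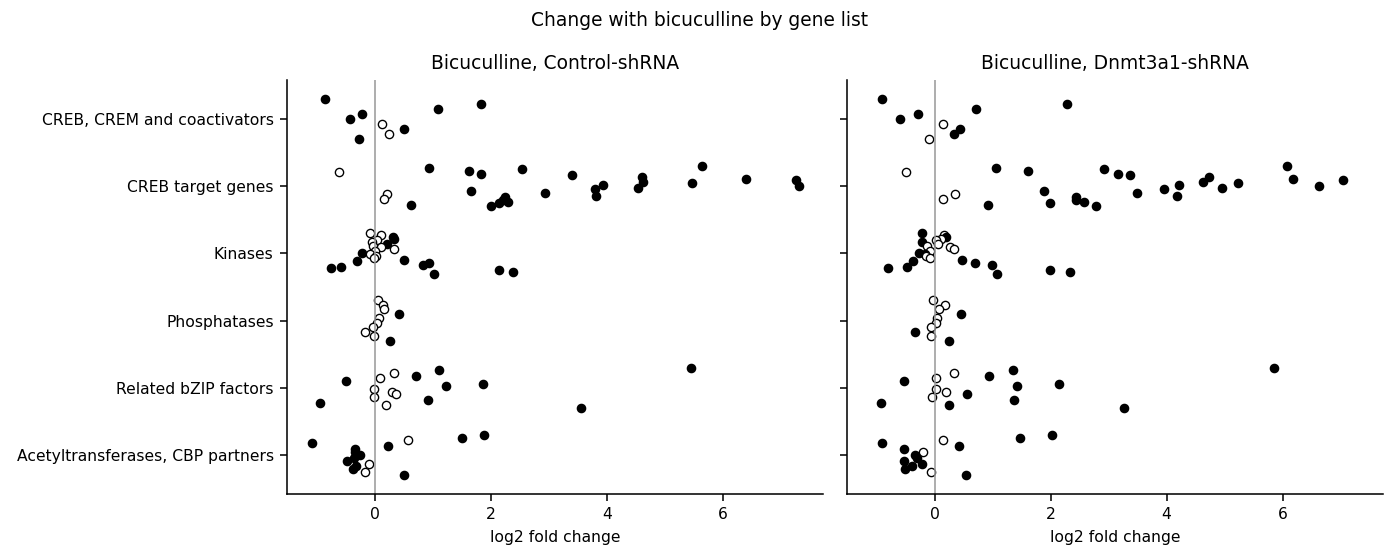
Log2 fold change with bicuculline (horizontal axis) of each tested gene of 6 lists (rows) in Control-shRNA (left) and Dnmt3a1-shRNA (right), with filled points for genes that passed. Of the 27 CREB target genes 24 lie to the right and passed in each panel, while the 9 family genes and the kinases lie on both sides of 0.

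Among 24 kinases that phosphorylate CREB or the CRTCs or, like Camkk1 and Camkk2, act upstream of such kinases, 13 passed with bicuculline in Control-shRNA, 9 higher and 4 lower, and 14 in Dnmt3a1-shRNA, 7 higher and 7 lower, where 41.4% and 46.0% of all genes passed. The median log2 fold change was 0.06 and 0.04. The 3 salt-inducible kinases, which hold the CRTCs in the cytoplasm, led in both. In Control-shRNA Sik2 went from 27.4 ± 2.29 to 143.3 ± 23.8 CPM (SD, n = 4, log2 fold change 2.39, SE 0.12, adjusted p = 4.45e-11), Sik1 from 28.6 ± 0.91 to 126.3 ± 8.56 CPM (2.14, SE 0.06, adjusted p = 1.80e-13) and Sik3 from 114.8 ± 6.0 to 231.4 ± 28.6 CPM (1.01, SE 0.08, adjusted p = 4.20e-08). In Dnmt3a1-shRNA they rose by 2.32, 1.98 and 1.07. Sik1 is also in the list of CREB targets. Of the 17 kinases with a RefSeq window 10 (58.82%) held the shorter CRE form and 0 the full form, against 23.05% and 2.03% of all genes. A match in any window of a gene was counted, and these shares were given no test. Sik2, Sik3 and Prkacb, which rose in Control-shRNA, were among the 10, Sik2 with its matches at and just after the start. So were Rps6ka1, Rps6ka4 and Rps6ka5, which fell by 0.31, 0.59 and 0.76 on the log2 scale in Control-shRNA. Camk1, Camkk1, Mark2 and Prkaca were also among them and did not pass there. In baseline 7 of the 24 kinases passed in the knockdown, 6 higher and 1 lower, where 16.3% of all genes passed. With the replicate number as a block 12 of the kinases passed, while the calls over all genes went from 2809 to 4743. Camk2d, a subunit of calcium/calmodulin-dependent kinase II, was the 1 past the fold threshold, at 97.2 ± 4.98 against 62.8 ± 4.00 CPM (SD, n = 4, log2 fold change 0.63, SE 0.07, adjusted p = 1.64e-05). With bicuculline 5 passed, 3 higher and 2 lower, none past the fold threshold, where 17.7% of all genes passed. The count was 3 without Control-shRNA bicuculline replicate 4 or Dnmt3a1-shRNA bicuculline replicate 1 or 2.

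Of the 10 phosphatase genes that act on CREB or the CRTCs, 2 passed with bicuculline in Control-shRNA, both higher, a share below the 41.4% of all genes. With the replicate number as a block 5 passed, and 4 by library size alone and in both limma fits of TPM. Ppp2ca, a catalytic subunit of protein phosphatase 2A, was among the 2. In Dnmt3a1-shRNA 3 passed, 2 higher and the calcineurin subunit Ppp3cc lower, against 46.0% of all genes, and 5 by library size alone and 6 in both limma fits of TPM. In the knockdown 2 passed in baseline, both higher, where 16.3% of all genes passed. This count was 1 without Control-shRNA baseline replicate 3 or Dnmt3a1-shRNA baseline replicate 1 or 2. With the block 5 passed, beside 4743 calls over all genes. With bicuculline 2 passed in the knockdown, both higher, where 17.7% of all genes passed. In 11 of the 16 fits that left out a library 1 passed. These were the fits without Control-shRNA baseline replicate 1, 2 or 4, Control-shRNA bicuculline replicate 1, 2 or 3, Dnmt3a1-shRNA baseline replicate 1 or 3, or Dnmt3a1-shRNA bicuculline replicate 1, 2 or 4. The phosphatases named here were named after their values were seen. None of them was past the fold threshold in any of these comparisons.

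Among related leucine zipper factors 16 of 17 were tested, and 9 passed with bicuculline in Control-shRNA, 7 higher and 2 lower, and 11 in Dnmt3a1-shRNA, 9 higher and 2 lower, where 41.4% and 46.0% of all genes passed, with medians of 0.34 and 0.44 on the log2 scale. Atf3, a stress and activity-induced repressor, went from 3.28 ± 1.51 to 144.6 ± 37.1 CPM (SD, n = 4, log2 fold change 5.45, SE 0.34, adjusted p = 1.17e-09), Nfil3 from 22.2 ± 3.08 to 260.8 ± 46.1 CPM (3.56, SE 0.13, adjusted p = 1.27e-12) and Cebpb from 11.9 ± 2.25 to 43.2 ± 4.29 CPM (1.85, SE 0.18, adjusted p = 2.85e-07). In Dnmt3a1-shRNA the same genes rose by 5.86, 3.26 and 2.13. In the knockdown 5 of the 16 passed in baseline, 2 higher and 3 lower, where 16.3% of all genes did. With the replicate number as a block 8 passed, beside 4743 calls over all genes. Atf6b, a factor of the unfolded protein response, fell by 0.60 on the log2 scale in baseline (SE 0.06, adjusted p = 1.92e-06), and Nfil3 rose by 0.60 (SE 0.12, adjusted p = 0.00258). With bicuculline 3 passed, 2 higher and 1 lower, where 17.7% of all genes passed. This count was 5 without Dnmt3a1-shRNA bicuculline replicate 3 and 1 with limma on log2(TPM + 1) or log2(TPM + 0.1). Atf6b fell by 0.66 (SE 0.06, adjusted p = 5.64e-07).

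A further list of 15 genes held other lysine acetyltransferases, partners of CBP and p300, and Crebrf. Of these, 12 passed with bicuculline in each shRNA, 4 higher and 8 lower, where 41.4% and 46.0% of all genes passed and 21.9% and 25.2% were lower. The medians of the list were -0.26 and -0.22 on the log2 scale. Cited1 and Cited2, whose proteins bind CBP and p300, rose by 1.88 (SE 0.16, adjusted p = 4.59e-08) and 1.5 (SE 0.14, adjusted p = 2.03e-07) in Control-shRNA, and the mean of Cited2 went from 67.2 ± 6.16 to 189.8 ± 45.4 CPM (SD, n = 4). Crebrf, a CREB3 regulatory factor, fell by 1.10 on the log2 scale (SE 0.13, adjusted p = 2.12e-06). In Dnmt3a1-shRNA they changed by 2.02, 1.46 and -0.92. In the knockdown in baseline 0 of the 15 passed in edgeR, where 16.3% of all genes passed. With voom and limma 0 passed, with DESeq2 1 and with the block 2, and 2 had an unadjusted p under 0.05 in edgeR. In edgeR 1 passed without Control-shRNA baseline replicate 1, Control-shRNA bicuculline replicate 1, Dnmt3a1-shRNA baseline replicate 2 or 3 or Dnmt3a1-shRNA bicuculline replicate 3. With bicuculline Hat1, a histone acetyltransferase, and Ncoa3, a nuclear receptor coactivator, passed in the knockdown, both higher, where 17.7% of all genes passed. Of these 2, none passed without Control-shRNA bicuculline replicate 2, 3 or 4 or Dnmt3a1-shRNA bicuculline replicate 1 or 2, and the count was 1 without Control-shRNA baseline replicate 1 or 3, Control-shRNA bicuculline replicate 1, Dnmt3a1-shRNA baseline replicate 1 or 4 or Dnmt3a1-shRNA bicuculline replicate 3 or 4. In the interaction no gene of the kinase, phosphatase, leucine zipper and acetyltransferase lists passed in edgeR, DESeq2 or voom with limma. In edgeR 1 leucine zipper gene had an unadjusted p under 0.05, beside 852 of all 17222 genes.

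Across the 16 libraries, log2 CPM of Crem correlated most, of 13879 genes searched, with Bdnf (Pearson r = 0.991), Pam (0.989), which amidates neuropeptides, and Acan (0.988), the perineuronal net proteoglycan aggrecan. The most alike for Creb1 were Zfp120 (0.988), Fpgt (0.983) and Gigyf2 (0.982), for Atf1 Eif5 (0.971), Adamts5 (0.966) and Rpl4 (0.957), and for Atf2 Zfp280d (0.974), Ipo11 (0.970) and Zfp148 (0.969). For Crtc1 they were Gatd1 (0.983), Klhdc8a (0.982) and Dagla (0.982), for Crtc3 Rela (0.959), Oaz1 (0.955) and Pak6 (0.951), and for Crtc2 Armc5 (0.924), Zc3hc1 (0.893) and Rnf123 (0.885). Crebbp was most like Atp8a1 (0.947), Frmpd3 (0.928) and Purb (0.926), and Ep300 most like Kmt2c (0.936), Mdn1 (0.935) and Spen (0.935). Within the family Creb1 went with Atf2 (r = 0.939) and opposite to Crem (-0.865), and Crem went with Atf1 (0.908) and opposite to Crtc1 (-0.941). The libraries of a group share their treatment, which separates them in most of these genes, so these values describe the 16 libraries and carry no test.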

How the data were processed

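RNA of 16 libraries was analysed, 4 per combination of shRNA and condition as given in the sample titles. The authors trimmed the paired-end reads with Trim Galore 0.6.4, quantified them with kallisto (the submitters' processing notes give 0.4.6 as its version) on GRCm38.p6, and deposited for each library estimated counts per gene, summed over transcripts and unscaled. The authors also deposited TPM values, which are scaled for transcript length and library total.

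After rounding of the estimated counts, the test was run in edgeR 4.0.16 under R 4.3.3 (TMM scaling, edgeR's filter on low counts by group, 1 quasi-likelihood model of all 4 groups, Benjamini-Hochberg adjustment over 17222 genes, and 95% intervals from the model). TMM factors were 0.871 to 1.12. The study's voom and limma (limma 3.58.1), DESeq2 1.42.0, 2 other scalings, 2 other filters, limma on log2(TPM + 1) and log2(TPM + 0.1), the 2 groups alone, a replicate block and each library left out were alternatives. The script was tested on simulated data. Chi-square over its degrees of freedom was 7.14 to 39.8 for pairs within a group, so no library was counted as a repeat of another. p-values rest on 4 libraries per group. Intervals cover the spread between these libraries.

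Identifiers matched the GENCODE annotation of GRCm38 without version for 55144 of 55385 genes. Start windows are from a set of RefSeq starts that held 7 of the 9 genes and lacked Crem and Crtc2. Mean transcript length was the ratio of count to TPM, scaled per library on genes with 1 transcript, and was added after the data were seen.

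The members and lists were chosen with earlier results of these data known. Apart from the members and Dnmt3a, genes were named as the 3 largest changes per list and comparison that passed with an absolute log2 fold change over 0.5 and a mean of at least 1 CPM, and as the 3 most correlated genes per member. Genes named for a CRE match, phosphatases, Hat1, Ncoa3, genes of a list that did not pass, and the antisense neighbour were added after their values were seen. So were the changes of single GABAergic and astrocyte markers. The values of 1 phosphatase gene are not reported here.

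The labels number the replicates 1 to 4 in each group. As a check of pairing, each library's deviations from the mean of its group were correlated with those of the library of the same number. For bicuculline in Control-shRNA, r was 0.142 to 0.221, and for the knockdown in baseline it was 0.204 to 0.355. Every value exceeded 0.1, but differently numbered libraries were not compared, so the check cannot settle whether the numbers pair the libraries. The main p-values come from the fit without pairing, and the replicate block was run as an alternative.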

Additional observations from a re-analysis of the deposited data

Results flagged for a closer look

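In 116 sets of 4 libraries (9 genes and Dnmt3a, CPM and TPM by group, and mean transcript length of the 9 genes), the highest or lowest library stood apart from its group by Dixon's criterion in 5, where chance gives about 1 in 20 sets. None of the 5 concerned CPM, on which the tests were made. Atf1 TPM in Dnmt3a1-shRNA with bicuculline was 11.9 in replicate 2 against 10.4 to 10.6 in the others (gap over range 0.872). Creb1 TPM in Control-shRNA with bicuculline was 6.35 in replicate 3 against 7.53 to 7.77 (0.831). The other 3 were mean transcript lengths. That of Creb1 in Dnmt3a1-shRNA with bicuculline was 5830 nt in replicate 2 against 6330 to 6380 nt (0.909), that of Crem in Dnmt3a1-shRNA baseline was 1246 nt in replicate 1 against 1168 to 1172 nt (0.949), and that of Atf2 in Dnmt3a1-shRNA baseline was 3251 nt in replicate 2 against 3051 to 3076 nt (0.875). Without Dnmt3a1-shRNA baseline replicate 1, or any other single library, the fall of the Crem length with bicuculline in Dnmt3a1-shRNA was 144 to 191 nt.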

How the results depend on the processing

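Of the alternatives to the log2 fold changes of the members and named genes, 1192 that left out a library and 735 others kept the direction and the side of the threshold, 43 lost a call, 6 gained one and 43 changed sign in a value that had not passed. The count of members that passed with bicuculline was 4 in each shRNA with a fold threshold of 0.5, and 5 to 7 and 6 to 7 with a library left out. In the knockdown in baseline it was 0 with voom and limma and 0 to 1 with a library left out, and with bicuculline 1 in both limma fits of TPM, the gene being Atf1. With the replicate block the count was 8 with bicuculline in Control-shRNA (Crebbp, 0.23, adjusted p = 0.0026), and no other member's call changed. The block moved all genes called in the knockdown in baseline from 2809 to 4743. In the other 2 comparisons same-numbered libraries correlated at 0.0631 to 0.337 and 0.0667 to 0.388. Not every value there exceeded 0.1, and differently numbered libraries were not compared in any comparison, so pairing by number was not settled. The block moved the knockdown calls with bicuculline from 3046 to 5158. Among them, kinases went from 5 to 10, phosphatases from 2 to 4, leucine zipper factors from 3 to 7 and targets from 4 to 10. In the knockdown the phosphatase counts of 2 were also 1 without a filter, by library size alone and on TPM, and the acetyltransferase count of 2 with bicuculline was 0 without a filter and 1 on TPM or with the 2 groups alone.

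Scaling by library size alone moved the median of all genes from 0.01 to -0.15 with bicuculline in Control-shRNA, from -0.01 to -0.16 in Dnmt3a1-shRNA, and to -0.07 and -0.08 in the knockdown comparisons, and the lower share of calls from 53 to 73.5%, 54.8 to 71.7%, 50.2 to 73.1% and 56.5 to 74.8%. On log2(TPM + 1) the lower shares were 76.4, 74, 83.6 and 81.2%, and on log2(TPM + 0.1) 76.2, 73.8, 83 and 82.2%. Values that changed sign, given for library size alone and then log2(TPM + 1) and log2(TPM + 0.1), were those of Crtc2 with bicuculline in Control-shRNA (-0.0405, -0.0823 and -0.088), Atf2 (-0.0418, -0.0836 and -0.0844), Crebbp (-0.0097, -0.0349 and -0.0379) and Ep300 (-0.0409, -0.0202 and -0.0217) in the knockdown in baseline. On the TPM scales alone they were Crtc1 in the knockdown in baseline (-0.0391 and -0.0397), Creb1 (-0.0291 and -0.0326) and Ep300 (-0.0399 and -0.0422) in the knockdown with bicuculline, and Ep300 in the interaction (-0.0197 and -0.0205), and by library size alone Crtc2 with bicuculline in Dnmt3a1-shRNA (-0.0086). With a library left out, ranges spanned 0 for Crebbp (-0.0197 to 0.151) and Ep300 (-0.0262 to 0.139) in the knockdown in baseline, for Creb1 (-0.012 to 0.156), Crem (-0.333 to 0.0108), Atf2 (-0.0618 to 0.0276) and Crtc1 (-0.14 to 0.0305) in the knockdown with bicuculline, and for Creb1 (-0.14 to 0.0355), Crtc2 (-0.0382 to 0.128), Crtc3 (-0.12 to 0.0013) and Crebbp (-0.0459 to 0.182) in the interaction. The causes were not tested.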
